A study of Sus scrofa with 6 samples.

Results

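The genes described here are those of the glutathione, thioredoxin and superoxide defense of the liver, with their regulators, in pigs of normal birth weight and in pigs with intrauterine growth restriction (IUGR). The set holds 37 gene symbols. They were looked up by symbol in a table of 121055 assembled loci, and where a symbol stood on several loci the one with the highest mean level was used. A row was found for 32 of them under their own symbol. A further 3 were found under another name and are kept apart from the counts, namely TXN (in the table as TRX1), GLRX (as GRX1) and SRXN1 (by its gene identifier). GPX1 and GLRX2 matched no row and were not analysed here. The libraries came from the livers of 6 PIC male pigs aged 150 days, 3 labelled Normal (group birth weight about 1.49 kg) and 3 labelled IUGR (about 0.97 kg), with 1 library per pig. The pigs were drawn at random from 8 Normal and IUGR pairs born to 8 sows, lived in the same environment and were fasted before slaughter. Growth restriction was defined by birth weight within litters and not by an imposed treatment, and the labels do not say whether any of the sequenced pigs were littermates. The comparison asks how growth restriction before birth is reflected in liver mRNA of the grown pig.

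These genes form linked chains of electron transfer. Superoxide dismutases turn superoxide into hydrogen peroxide, which glutathione peroxidases and peroxiredoxins then reduce to water. The first draw on glutathione, made from cysteine, glutamate and glycine and recycled by glutathione reductase, and the second mostly on thioredoxin, recycled by thioredoxin reductase, and both reductases use NADPH. Many of the enzymes have separate forms for the cytosol and for mitochondria, where much of a hepatocyte's superoxide arises. The transcription factor NRF2 (gene NFE2L2), held back by KEAP1, switches on many of the genes.

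Levels are given as FPKM, the authors' count of fragments scaled to exon length and to each library's mapped fragments. The table holds no read counts, so the depth behind a single value is unknown. The median FPKM of the tested loci ran from 3.83 to 5.94 over Normal and from 4.82 to 5.81 over IUGR libraries. In the study's alignment summary, Normal 1, IUGR 2 and IUGR 3 had a higher share of their reads mapped than Normal 2, Normal 3 and IUGR 1. Most results below are given with this split beside them. The split follows the share of reads mapped and not their number. IUGR 2 and IUGR 3 were also closer to each other than any other pair of libraries, with a spread of log2 differences of 0.104 against 0.259 to 0.326 over the 4848 loci averaging 10 FPKM or more. Hepatocyte markers summed to between 13903 and 24729 FPKM in the Normal libraries and between 17624 and 29328 in the IUGR libraries over the 8 genes estimated in every library, while albumin, a defining marker, was listed at 0 in all 6 libraries with a status that marks too many reads for an estimate. Markers of stellate cells and fibroblasts summed to 53.7 to 106 FPKM in Normal and 113 to 142 in IUGR pigs over 8 of 9 genes, and those of neutrophils to 3.63 to 9.90 and 11.5 to 20.8 FPKM over 6 genes, so these 2 sums did not overlap between the groups. Of the neutrophil list only MPO was under 1 FPKM in every library, and no stellate marker was. Sums for red blood cells, Kupffer cells, lymphocytes, endothelium and cholangiocytes overlapped between the groups. In bulk liver, more cells of a type and more RNA per cell cannot be told apart, and the part of these cell types in the results below was not tested.

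SOD1 was by far the most abundant of these transcripts. Its level averaged 827 FPKM over the 6 pigs and made up 36.7% to 39.8% of the summed FPKM of the 32 genes, a share that hardly moved although the sum itself ran from 1497 FPKM in Normal 2 to 2843 in IUGR 2. The 6 peroxiredoxins together made up another 21.7% to 24.9%. In all, 12 of the 32 genes had a mean of at least 50 FPKM, 17 lay between 1 and 50, and 3 (GPX2, GPX7 and KEAP1) stayed under 1.

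**Figure D1:**
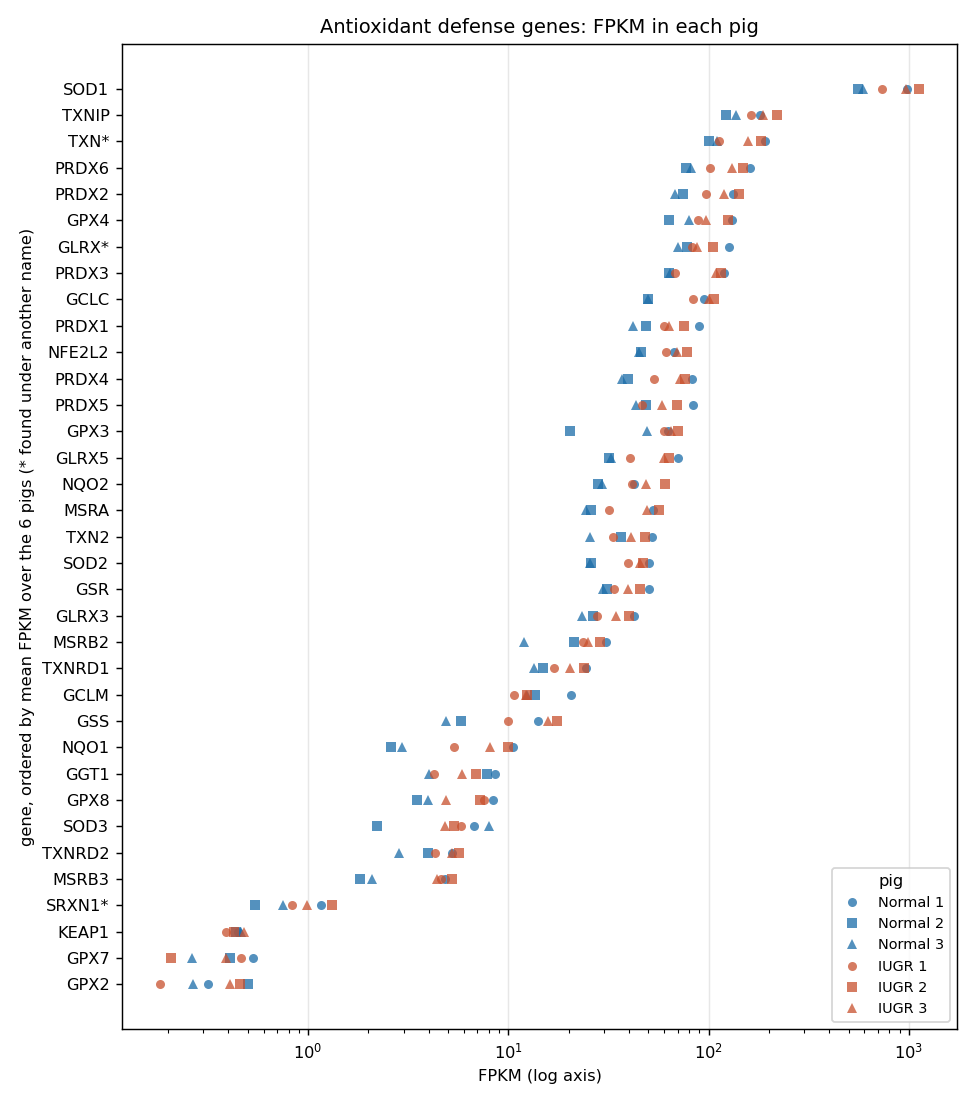
FPKM of each gene in each of the 6 pigs on a log axis, ordered by mean level, with Normal pigs in blue, IUGR pigs in red and a marker shape for each pig number. SOD1 lies above every other gene at 558 to 1131 FPKM, GPX2, GPX7 and KEAP1 lie under 1, and for most genes blue circles (Normal 1) sit among the red symbols.

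For most genes the pigs differed more by share of reads mapped than by group. With 1 library per pig, differences between pigs and between libraries cannot be told apart. From the lowest to the highest pig, single genes varied 1.24-fold (KEAP1) to 4.04-fold (NQO1), with a median of 2.12-fold. For 23 of the 31 genes tested (74.2%), the 3 highest values were those of Normal 1, IUGR 2 and IUGR 3. These are the libraries with the higher mapped share, and the same held for 44.3% of all 14727 loci tested. In a model with group and mapped share together, all 31 were higher in those libraries, as were 88.0% of all loci, with a median log2 difference of 0.58 against 0.30 over all loci. No gene of the set passed an adjusted p of 0.05 for this difference (limma, lowest adjusted p = 0.0605, for MSRA), whereas 0.407% of all loci did in that direction, while 23 had an unadjusted p under 0.05, against 32.1% of all loci. The split was chosen with earlier results of these data known, and what lies behind it was not tested. KEAP1 (0.034 on the log2 scale) and GPX7 (0.012) differed least, and both are among the least abundant.

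**Figure D2:**
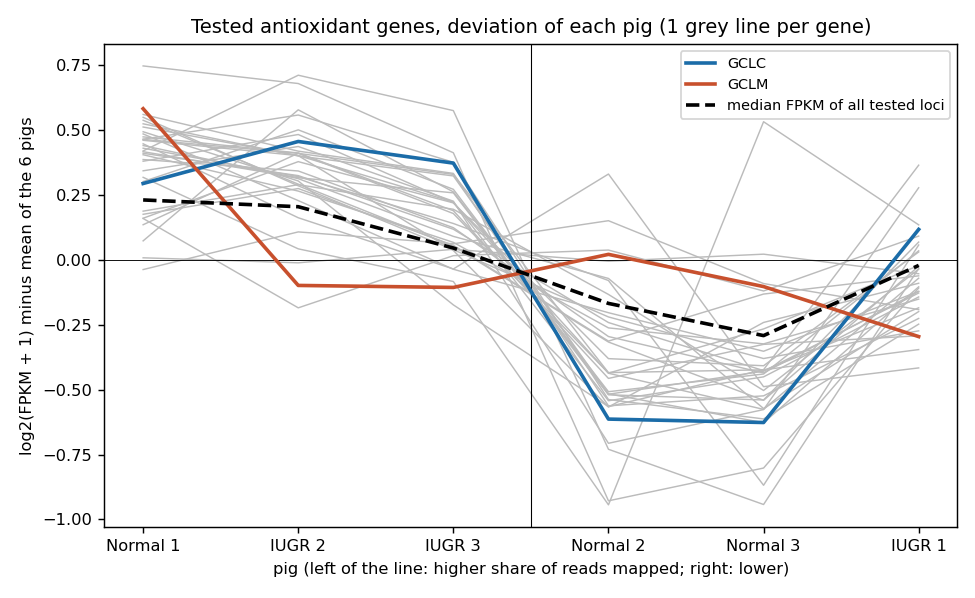
Deviation of log2(FPKM + 1) from the gene's mean over the 6 pigs, 1 grey line per tested gene, with the pigs ordered by share of reads mapped and the dashed line giving the median FPKM of all tested loci on the same scale. Most lines lie above 0 in Normal 1, IUGR 2 and IUGR 3 and below it in the other pigs, while GCLM (red) stands at 20.5 FPKM in Normal 1 and at 10.7 to 12.4 in the IUGR pigs.

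No gene of the set differed between IUGR and Normal pigs past the threshold. Of the 31 tested, 0 were called higher and 0 lower at an adjusted p under 0.05 (limma on log2(FPKM + 1), two-sided, Benjamini-Hochberg over all loci), with adjusted p from 0.668 to 0.982. Over all loci 0.00679% were called higher and 0.0136% lower, so that hardly any locus reached a call with 3 pigs a group. At an unadjusted p under 0.05, 2 genes were past the threshold, GSS and MSRB3, both higher in IUGR pigs, against 6.79% of all loci in either direction. The fold change was above 0 for 26 genes and below 0 for 5, or 83.9% above 0 where 79.2% of all loci were. The median log2 fold change was 0.32 over the 31 genes and 0.15 over all loci, and 22 genes lay above the latter median and 9 below it.

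Groups overlapped for each of the 31 genes, while 8.39% of all loci were higher in IUGR pigs with no overlap and 1.22% lower. Leaving out 1 pig changed this number. Without Normal 1, 23 of the 31 genes were higher in all 3 IUGR pigs than in both remaining Normal pigs, as were 51.1% of all loci, and without IUGR 1 the number was 6, against 20.9%. Within the libraries with the higher mapped share (1 Normal and 2 IUGR), 21 of the 31 genes were lower in IUGR. The median log2 difference of the 31 was -0.16, against -0.084 over all loci. Within the other libraries (2 Normal and 1 IUGR), 27 were higher, with a median of 0.33 against 0.19. When libraries were brought to the same median, the same sum or the same quantiles, 21, 17 and 19 genes had a fold change above 0, against 53.8%, 39.2% and 48.7% of all loci, and their median log2 fold change became 0.15, 0.079 and 0.051. Genes whose groups did not overlap numbered 4 higher and 1 lower at the same median (9.48% and 6.29% of all loci), 4 and 3 at the same sum (5.98% and 9.98%) and 5 and 3 at the same quantiles (8.27% and 7.92%). With mapped share in the model 21 genes had a fold change above 0, against 62.3% of all loci. The median of all loci moved to 0.016, -0.050 and -0.0054 under these scalings. Changes given below without a scaling therefore stand against a general shift of 0.15.

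**Figure D3:**
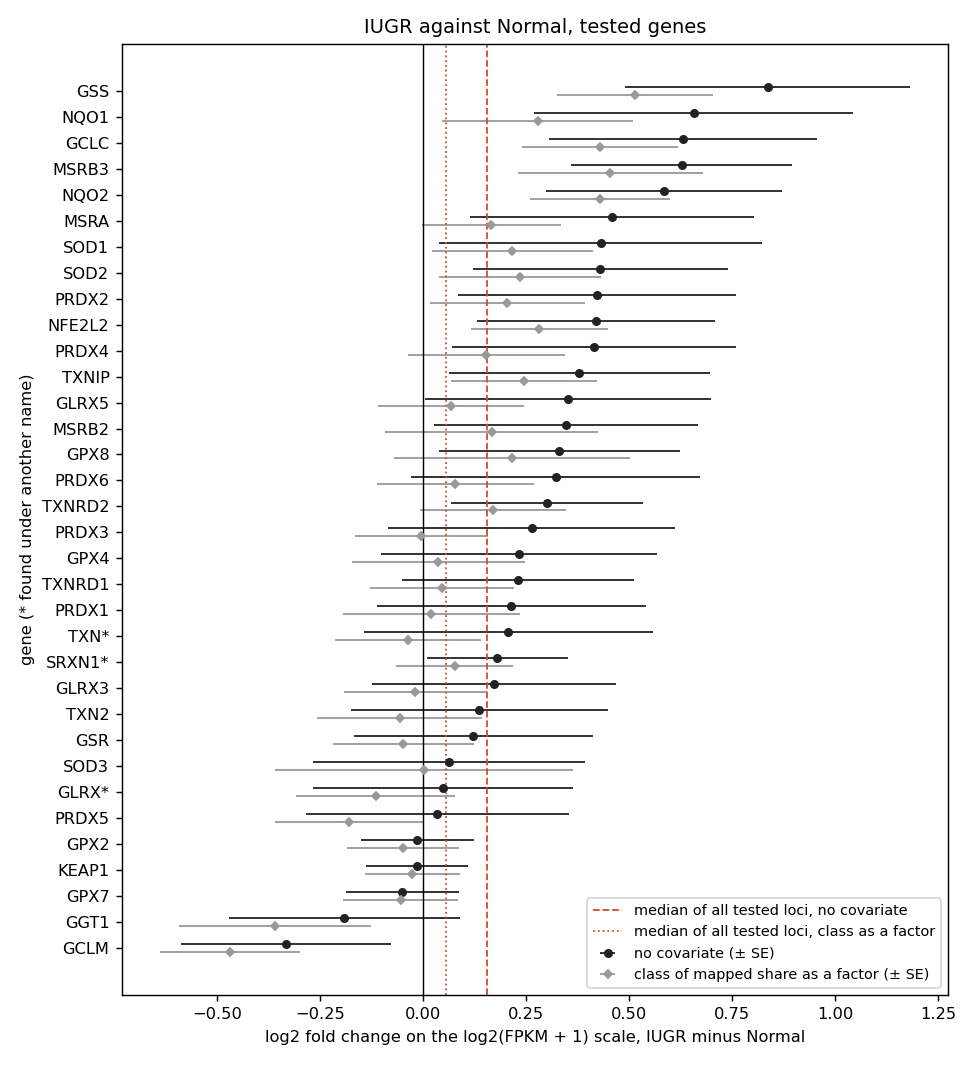
Log2 fold change of each tested gene on the log2(FPKM + 1) scale, IUGR minus Normal, with its SE, from the model without a covariate (black) and with the class of mapped share as a factor (grey). Vertical lines mark the median of all tested loci (0.15 and 0.055). Black points run from -0.33 for GCLM to 0.84 for GSS, and most grey points lie nearer to 0.

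The dismutases stand at the head of the chain. SOD1, the copper and zinc enzyme of the cytosol (chr13:205620986-205629933 in Sscrofa10.2, the build of all coordinates here), measured 985, 558 and 593 FPKM in Normal 1 to 3 and 731, 1131 and 965 in IUGR 1 to 3. The 2 lowest values were Normal and the highest was IUGR 2, but Normal 1 lay above IUGR 1 and IUGR 3. The group means were 712 ± 237 and 942 ± 201 (SD, n = 3 each), with a log2 fold change of 0.43 (SE 0.39, limma adjusted p = 0.886).

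SOD2, the manganese enzyme of mitochondria (chr1:9475309-9487684), measured 50.7, 26.0 and 25.6 FPKM in Normal and 39.6, 47.2 and 45.3 in IUGR pigs. Normal 1 was highest and the other Normal pigs were lowest, and the log2 fold change was also 0.43 (SE 0.31, limma adjusted p = 0.877). SOD3, the secreted form, lay between 2.22 and 7.96 FPKM in Normal and between 4.85 and 5.81 in IUGR pigs. Its log2 fold change of 0.063 turned to -0.39 without Normal 2 and was below 0 under all 3 scalings.

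The genes that make glutathione did not move as one. GCLC, the catalytic subunit of glutamate-cysteine ligase, the rate-limiting enzyme of glutathione synthesis (chr7:31702762-31747437), measured 94.9, 50.1 and 49.7 FPKM in Normal and 83.8, 106 and 100.3 in IUGR pigs. Normal 1 exceeded IUGR 1, and the other Normal pigs lay below every IUGR pig. Its means were 64.9 ± 26.0 and 96.8 ± 11.6 FPKM (SD, n = 3 each) and its log2 fold change 0.63 (SE 0.33, limma adjusted p = 0.779), which stayed above 0 under the scalings (0.36 to 0.45).

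GCLM, the modifier subunit that raises the activity of GCLC (chr4:135017070-135032511), measured 20.5, 13.5 and 12.3 FPKM in Normal and 10.7, 12.4 and 12.3 in IUGR pigs. The groups overlapped at Normal 3, which lay just under IUGR 2. Its means were 15.5 ± 4.38 and 11.8 ± 0.967 FPKM and its log2 fold change -0.33 (SE 0.26, limma adjusted p = 0.880), the lowest of the set. It was lower in IUGR pigs under each scaling (-0.59 to -0.51) and with each library left out, but only by 0.13 on the log2 scale without Normal 1. Under the same-median scaling the groups did not overlap for GCLC, MSRB3, NFE2L2 and NQO2 (higher in IUGR pigs) nor for GCLM (lower). GLRX, found under another name, was also lower without overlap.

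Taking the subunits as a ratio within each pig removes what a library shares. There were 3.70 to 4.64 FPKM of GCLC per FPKM of GCLM in Normal pigs (4.64, 3.70 and 4.02) and 7.85 to 8.58 in IUGR pigs (7.85, 8.58 and 8.14). Every IUGR pig lay well above every Normal pig, with means of 4.12 ± 0.477 and 8.19 ± 0.367 (SD, n = 3 each). The log2 difference was 0.997 (SE 0.10), and between 0.92 and 1.09 with any single library left out. It was 0.85 within the libraries with the higher mapped share and 1.03 within the others. This ratio was chosen after its values had been seen and so carries no test. Among the 378 ratios between the 28 tested genes under their own symbol with a mean of at least 1 FPKM, 121 did not overlap between the groups in either direction (32.0%), against 16.8% of all ratios between tested loci of that mean with a value above 0 in every library. GCLC to GCLM had the widest gap of the 378 (0.76 on the log2 scale), followed by NQO2 to GCLM and NFE2L2 to GCLM. GCLM took part in 23 of the 121, out of 27 ratios it could form, but the ratio to GCLM also did not overlap for 70.1% of all loci, and a gap to GCLM was thus common. GCLC took part in 16 of its 27, against 47.8% of all loci. GGT1 took part in 19, PRDX5 in 17 and MSRB3 in 16, and their shares over all loci were not computed. PRDX5 shares its assembled locus with ESRRA, so its ratios are not those of 1 gene.

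GSS, glutathione synthetase, which adds glycine in the last step, measured 14.1, 5.79 and 4.86 FPKM in Normal and 10.01, 17.4 and 15.8 in IUGR pigs. The 2 highest values were IUGR and the 2 lowest Normal, with Normal 1 above IUGR 1. Its log2 fold change of 0.84 was the highest of the set (SE 0.35, unadjusted p = 0.0318, limma adjusted p = 0.668) and ran from 0.57 to 1.25 with single libraries left out. GSS was also higher by 0.97 on the log2 scale in the libraries with the higher mapped share.

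GSR, glutathione reductase, which returns oxidised glutathione to its reduced form in cytosol and mitochondria (chr15:61755045-61920689), is the member for which the study's list of quantitative PCR primers gives a sequence. The primers, both 5′ to 3′, are shown because they are the designed sequences at hand for a gene of the set, and they carry no capitals because no base is singled out.
GSR forward: tgactatggctttcagagttgtg
GSR reverse: gccgtggatgatttctatgtg
By RNA-seq, GSR measured 50.1, 31.2 and 29.9 FPKM in Normal and 33.8, 45.4 and 39.5 in IUGR pigs. The Normal pigs held both the highest value and the 2 lowest. The means of 37.1 ± 11.3 and 39.6 ± 5.82 FPKM (SD, n = 3 each) differed by a log2 fold change of 0.12 (SE 0.29, limma adjusted p = 0.936). The sign turned under each scaling (-0.15 to -0.061) and with mapped share in the model (-0.049). At the same sum and at the same quantiles every IUGR pig lay below every Normal pig for GSR. The same held for 9.98% and 7.92% of all loci. The study reports lower mRNA and lower enzyme activity of GSR and SOD1 in IUGR livers. Neither gene had a lower mean FPKM in the IUGR pigs here before scaling. Under the scalings GSR was lower, as given above, while the log2 fold change of SOD1 stayed above 0 (0.050 to 0.24). The reason for the difference from the study was not tested. GGT1, the membrane enzyme that starts the breakdown of glutathione outside the cell, measured 8.599, 7.85 and 4.02 FPKM in Normal and 4.28, 6.88 and 5.87 in IUGR pigs. The IUGR range lay within the Normal range, with a log2 fold change of -0.19 (limma adjusted p = 0.900).

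GPX1 matched no row, so its level is unknown here. Among the glutathione peroxidases found, GPX4, which reduces lipid peroxides within membranes, was the most abundant. It lay at 63.5 to 131 FPKM in Normal and 88.8 to 125 in IUGR pigs. Its log2 fold change was 0.23 (limma adjusted p = 0.900) and below 0 at the same sum and quantiles. GPX3, the secreted plasma form, measured 62.6, 20.4 and 49.5 FPKM in Normal and 59.7, 70.3 and 64.7 in IUGR pigs, with Normal 2 lowest. Its row carries no gene identifier, and it entered only a fit over all named loci, with a log2 fold change of 0.68 (limma adjusted p = 0.851).

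GPX8 and GPX7 are enzymes of the endoplasmic reticulum. GPX8 lay at 3.48 to 8.34 and 4.88 to 7.55 FPKM, with a log2 fold change of 0.33 (limma adjusted p = 0.886). GPX7 measured 0.533, 0.409 and 0.264 FPKM in Normal and 0.463, 0.208 and 0.389 in IUGR pigs. GPX2, known from the gut lining, was also barely present, at 0.316, 0.499 and 0.268 against 0.182, 0.455 and 0.409 FPKM. Both low genes overlapped widely, with log2 fold changes of -0.051 and -0.015, which on this scale understate ratios of low values.

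In the thioredoxin system, TXN, the cytosolic carrier, measured 192, 100.2 and 110 FPKM in Normal and 112, 184 and 157 in IUGR pigs. TXN2, its mitochondrial counterpart, measured 52.4, 36.5 and 25.5 against 33.3, 47.9 and 40.9 FPKM. For both, Normal 1 was highest, and the log2 fold changes of 0.21 and 0.14 (limma adjusted p = 0.907 and 0.933) turned below 0 with mapped share in the model (-0.037 and -0.058).

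TXNRD1, the cytosolic reductase, measured 24.6, 14.9 and 13.5 FPKM in Normal and 17.0, 23.8 and 20.3 in IUGR pigs. TXNRD2, the mitochondrial reductase, measured 5.21, 3.97 and 2.85 against 4.32, 5.67 and 5.24 FPKM. Both reductases were lowest in Normal 2 and Normal 3, with log2 fold changes of 0.23 and 0.30 (limma adjusted p = 0.897 and 0.881). TXNIP, which binds thioredoxin and blocks it, had the second highest level of the 32 genes, at 122 to 181 FPKM in Normal and 162 to 220 in IUGR pigs, with a log2 fold change of 0.38 (limma adjusted p = 0.884).

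The peroxiredoxins had no called member either. PRDX1, of the cytosol, measured 89.3, 49.0 and 41.8 FPKM in Normal and 60.2, 75.2 and 63.5 in IUGR pigs, and PRDX3, of mitochondria, 120, 63.7 and 64.2 against 67.8, 115 and 109. In both the order was Normal 1 first, then IUGR 2 and IUGR 3, IUGR 1, and the other Normal pigs last. Their log2 fold changes were 0.21 and 0.26 (limma adjusted p = 0.903 and 0.897). The other 4, PRDX2 and PRDX6 of the cytosol, PRDX4 of the endoplasmic reticulum and PRDX5 of several compartments, had log2 fold changes of 0.42, 0.32, 0.41 and 0.034 (limma adjusted p from 0.881 to 0.982). PRDX5 shares its assembled locus with ESRRA, so its value cannot be taken as that of 1 gene. SRXN1, which repairs over-oxidised peroxiredoxins, was low at 0.542 to 1.16 FPKM in Normal and 0.836 to 1.32 in IUGR pigs.

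Of the glutaredoxins, which remove glutathione from proteins or carry iron-sulfur clusters, GLRX measured 126, 77.7 and 70.0 FPKM in Normal and 82.3, 105 and 87.4 in IUGR pigs. GLRX3, cytosolic, measured 42.4, 26.6 and 23.3 against 27.7, 39.8 and 34.4 FPKM, and GLRX5, which serves iron-sulfur assembly in mitochondria, 70.5, 31.8 and 32.7 against 40.5, 63.8 and 60.1. Before scaling all 3 were highest in Normal 1 and overlapped, with log2 fold changes of 0.047, 0.17 and 0.35 (limma adjusted p = 0.977, 0.908 and 0.889). Under each scaling GLRX was lower in IUGR pigs without overlap (log2 fold change -0.22 to -0.14). Between 6.29% and 9.98% of all loci were lower without overlap under these scalings. GLRX5 was among the genes most tied to mapped share, with a log2 difference of 0.85.

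The methionine sulfoxide reductases repair oxidised methionine. MSRB3, a form of the endoplasmic reticulum and mitochondria, measured 4.85, 1.82 and 2.09 FPKM in Normal and 4.59, 5.24 and 4.39 in IUGR pigs. Normal 1 lay within the IUGR range and the other Normal pigs well below it. Its log2 fold change was 0.63 (SE 0.27, unadjusted p = 0.0364, limma adjusted p = 0.699). Without Normal 1 it became 0.96 with an adjusted p of 0.0711, the lowest of any gene of the set under the alternatives tried and still no call. Within the libraries with the higher mapped share the log2 difference was -0.012, and within the others 0.92. MSRA, of cytosol and mitochondria, and MSRB2, of mitochondria, had log2 fold changes of 0.46 and 0.35 (limma adjusted p = 0.879 and 0.886), and their levels lay at 24.4 to 52.7 and 11.96 to 30.9 FPKM in Normal and 31.8 to 56.3 and 23.6 to 28.5 in IUGR pigs.

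Of the quinone reductases, NQO2 measured 42.4, 28.0 and 29.4 FPKM in Normal and 41.3, 60.6 and 48.5 in IUGR pigs. Normal 1 exceeded only IUGR 1, and by little. The log2 fold change was 0.58 (SE 0.29, limma adjusted p = 0.771). The difference was above 0 both within the libraries with the higher mapped share (0.35) and within the others (0.51). NQO1, a widely used readout of NRF2 activity, varied most of all, at 10.5, 2.61 and 2.94 FPKM in Normal and 5.37, 9.998 and 8.14 in IUGR pigs. Its log2 fold change was 0.66 (SE 0.39, limma adjusted p = 0.841), and its difference by mapped share larger at 1.13. Within the libraries with the higher mapped share IUGR pigs were lower (-0.20).

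NFE2L2, which encodes NRF2 (chr15:92433776-92437942), measured 67.0, 45.8 and 44.9 FPKM in Normal and 61.2, 78.1 and 69.9 in IUGR pigs. Normal 1 lay above IUGR 1 only, and the means were 52.6 ± 12.5 and 69.7 ± 8.48 FPKM (SD, n = 3 each). Its log2 fold change was 0.42 (SE 0.29, limma adjusted p = 0.862), 0.14 within the libraries with the higher mapped share and 0.42 within the others. KEAP1, the adaptor that directs NRF2 to degradation, measured 0.448, 0.434 and 0.462 FPKM in Normal and 0.387, 0.428 and 0.481 in IUGR pigs. KEAP1 varied least of the set, with a log2 fold change of -0.016 (limma adjusted p = 0.979). Its level was near the filter of 0.3 FPKM, and this scale understates ratios of low values. The symbol stood on 2 loci, and only the one with the higher mean was used.

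Mitochondrial and cytosolic forms were then set against each other within each pig, so that a difference shared by a whole library cancels. For SOD2 to SOD1 the ratio of FPKM was 0.0514, 0.0466 and 0.0432 in Normal 1 to 3, and it was 0.0542, 0.0417 and 0.0470 in IUGR 1 to 3. In every pig the mitochondrial dismutase transcript was thus a small fraction of the cytosolic one, and the group means, 0.0471 ± 0.00414 and 0.0476 ± 0.00623 (SD, n = 3 each), lay close together. The log2 difference was 0.012 (SE 0.13, exact permutation p = 0.9).

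For TXN2 to TXN the ratio was 0.232 to 0.364 in Normal and 0.260 to 0.296 in IUGR pigs (log2 difference -0.067, SE 0.20, exact permutation p = 0.8). For TXNRD2 to TXNRD1 it was 0.212 to 0.266 in Normal and 0.238 to 0.258 in IUGR pigs (log2 difference 0.13, SE 0.12, exact permutation p = 0.4). In both systems the cytosolic form was the more abundant in all 6 pigs. The reverse order held for PRDX3 to PRDX1, at 1.30 to 1.54 and 1.13 to 1.71 (log2 difference 0.048, SE 0.20, exact permutation p = 1), and for GLRX5 to GLRX3, at 1.20 to 1.66 and 1.46 to 1.75 (log2 difference 0.18, SE 0.16, exact permutation p = 0.4). That reverse order depended on the cytosolic partner: PRDX2 and PRDX6 exceeded PRDX3, and GLRX exceeded GLRX5, in all 6 pigs. All 5 ratios overlapped between the groups. The smallest p that 3 pigs against 3 allow is 0.1, so none of them could have passed 0.05, and adjustment over the 5 would only raise them. GLRX2 to GLRX could not be formed. By compartment, 15 of 18 tested cytosolic genes and 6 of 6 mitochondrial ones had a fold change above 0, against 79.2% of all loci. Their medians were 0.28 and 0.32. The cytosolic genes include those found under another name and the regulators NFE2L2 and KEAP1. MSRB3 and the genes of both cytosol and mitochondria are in neither group. With mapped share in the model the numbers above 0 were 12 of 18 and 4 of 6, against 62.3% of all loci.

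**Figure D4:**
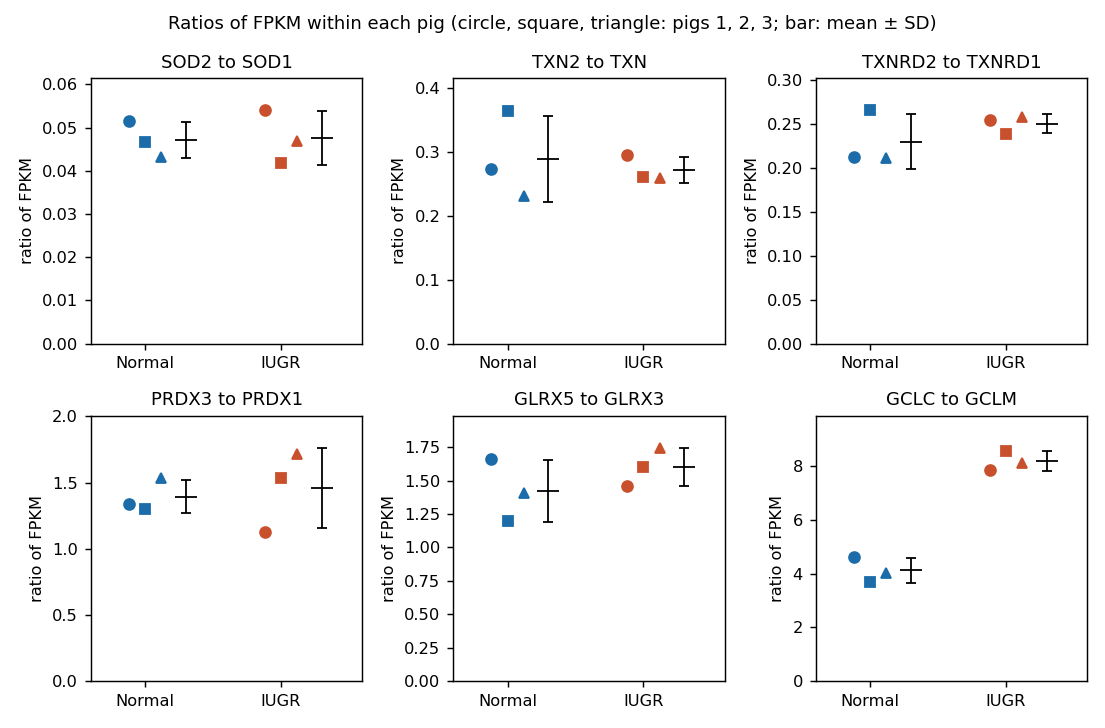
Ratio of FPKM within each pig for 5 pairs of a mitochondrial and a cytosolic form and for GCLC to GCLM, with Normal pigs in blue, IUGR pigs in red and a bar for the mean ± SD, each axis starting at 0. The groups overlap in the 5 pairs and are apart for GCLC to GCLM, at 3.70 to 4.64 and 7.85 to 8.58.

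Other genes around the pathway, in 6 lists, gave 0 calls in either direction (limma, adjusted p under 0.05). Of the genes that supply and turn over glutathione, 11 of 16 were tested and 0 had an unadjusted p under 0.05 in either direction, with a median log2 fold change of 0.13. CTH, which makes cysteine from cystathionine, measured 311, 208 and 160 FPKM in Normal and 103, 156 and 142 in IUGR pigs. Each IUGR pig was below each Normal pig, by a small margin at Normal 3, with a log2 fold change of -0.72 (SE 0.35, limma adjusted p = 0.765). AHCY, which releases homocysteine upstream of it, was likewise not overlapping, at 24.8, 19.4 and 21.1 against 17.4, 15.5 and 12.7 FPKM (log2 fold change -0.49, limma adjusted p = 0.778), and GGT7 had a log2 fold change of 0.34. These 2 of 11 genes lower without overlap compare with 1.22% of all loci, a description of a short list and no test of it.

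The genes that supply NADPH were the list with the highest median, 0.44, with a fold change above 0 in 11 of 11 tested, against 79.2% of all loci. Of the 11, 2 had an unadjusted p under 0.05, against 6.79% of all loci in either direction. ME3, the mitochondrial malic enzyme that yields NADPH, measured 2.69, 2.29 and 1.91 FPKM in Normal and 5.53, 6.72 and 5.62 in IUGR pigs. All IUGR values were above all Normal ones, Normal 1 included, with a log2 fold change of 1.08 (SE 0.20, limma adjusted p = 0.148) that was 0.87 to 0.94 under the scalings. ME1, the cytosolic malic enzyme, overlapped at 0.973 to 1.96 and 1.82 to 3.73 FPKM, with a log2 fold change of 0.55 (limma adjusted p = 0.698), and ALDH1L1, which yields NADPH from formyl-folate, had one of 0.71 (limma adjusted p = 0.814).

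In the list of selenium and selenoprotein genes, 15 of 21 were tested and 1 had an unadjusted p under 0.05, in the higher direction. This was SELENBP1, a selenium-binding methanethiol oxidase, at 55.8, 36.3 and 65.7 FPKM in Normal and 73.4, 121 and 105 in IUGR pigs. All IUGR pigs were above all Normal pigs (log2 fold change 0.93, limma adjusted p = 0.545). SEPSECS and SECISBP2, which serve the making of selenocysteine and its insertion, had log2 fold changes of 0.20 and 0.26.

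Of the partners of NRF2, 10 of 13 were tested and 1 had an unadjusted p under 0.05, in the higher direction. MAFK, a small MAF protein that pairs with NRF2 on DNA, measured 7.25, 5.10 and 5.35 FPKM in Normal and 9.48, 12.2 and 8.73 in IUGR pigs. These groups did not overlap (log2 fold change 0.69, limma adjusted p = 0.534), while MAFF and NFE2L1 had log2 fold changes of 0.28 and 0.27. Of other known NRF2 target genes 19 of 21 were tested, with 1 (ME1, again) at an unadjusted p under 0.05 and a median of 0.24. Among the 19, EPHX1 was listed at 0 FPKM in IUGR 3 against 458 and 818 in IUGR 1 and IUGR 2. GSTM3 and UGDH had log2 fold changes of 0.80 and 0.68 (limma adjusted p = 0.758 and 0.804). In the remaining list of peroxide, quinone and thiol genes, 18 of 21 were tested, with 0 at an unadjusted p under 0.05 and a median of 0.23. HMOX2, a haem oxygenase, had a log2 fold change of 0.55 and NXN, a thioredoxin relative, one of 0.42 (limma adjusted p = 0.779 and 0.856). PON1, which also ranks among the lowest p of this list, had failed estimates in all libraries but Normal 2. Its change is not given for this reason, but it is counted among the 18 tested and in their median.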

How the data were processed

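Liver mRNA of 6 pigs was sequenced in pairs, with 1 library per pig. Per the labels, the authors used Bowtie2 2.0.6, TopHat2 2.0.14, Cufflinks 2.2.1 and Cuffdiff 2.1.1 and deposited 1 table of FPKM values over assembled loci, with a status for each estimate (OK for every gene of the set). FPKM is scaled to each library's mapped fragments. The submitters' notes name Sscrofa10.2, which the coordinates follow. The edgeR 3.2 test in the study's methods needs read counts and was not used. Of the per-sample columns, 0 were left unmapped.

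Of 22571 loci with an Ensembl gene identifier, the 14727 with a mean FPKM of at least 0.3 were tested on log2(FPKM + 1) with limma 3.58.1 in R 4.3.3 (two-sided, lmFit and then eBayes with its trend option), and p-values were adjusted over all of them by the Benjamini-Hochberg method. The model was tested on simulated data. Ratios were compared with exact permutation tests (SciPy 1.17.1). P-values rest on the spread between these pigs, which with 1 library per pig holds pig and library variation together. In limma the variance of each locus also draws on all tested loci. The alternatives changed the pseudocount (0.1, 0.01), filter (none, or a mean of at least 1), scaling (same median, sum or quantiles), variance model, mapped share, replicate block and libraries. A fit over all named loci was added after seeing the data. Members and lists were chosen with earlier results of these data known. Values in every pig are given for mitochondrial and cytosolic pairs, GSR, NFE2L2, KEAP1 and the 4 further genes of lowest p in each direction, and up to 3 genes of lowest p are named per other list. GPX3 and the GCLC to GCLM ratio are outside this rule.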

Additional observations from a re-analysis of the deposited data

How the results depend on the processing

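Of 34 tested genes, 3 of them found under another name, 24 kept the sign of their fold change with every library left out and 19 under every alternative, and none was called under any, with a lowest limma adjusted p of 0.0711. The cause of the changes below was not tested. At the same median the log2 fold change became -0.090 for SOD3, -0.061 for GSR, -0.046 for TXN2, -0.15 for PRDX5, -0.14 for GLRX and -0.0088 for GLRX3. At the same sum it became -0.16 for SOD3, -0.15 for GSR, -0.039 for GPX4, -0.067 for TXN, -0.13 for TXN2, -0.029 for TXNRD1, -0.056 for PRDX1, -0.0083 for PRDX3, -0.24 for PRDX5, -0.22 for GLRX and -0.093 for GLRX3. With quantile scaling it became -0.092 for SOD3, -0.087 for GSR, -0.015 for GPX4, -0.078 for TXN, -0.069 for TXN2, -0.012 for PRDX1, -0.18 for PRDX5, -0.21 for GLRX and -0.033 for GLRX3. With mapped share as a factor it became -0.049 for GSR, -0.037 for TXN, -0.058 for TXN2, -0.0055 for PRDX3, -0.18 for PRDX5, -0.12 for GLRX and -0.020 for GLRX3, and with IUGR 2 and IUGR 3 averaged -0.039 for PRDX5. Among the tested genes under their own symbol, the number without overlap was 4, 4 and 5 higher and 1, 3 and 3 lower at the same median, sum and quantiles. GLRX, found under another name, was also lower without overlap under each of these scalings. Over all loci the shares were 9.48%, 5.98% and 8.27% higher and 6.29%, 9.98% and 7.92% lower.

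With single libraries left out the number without overlap, again among genes under their own symbol, ran from 0 to 23 higher and from 0 to 2 lower. Over all loci the share ran from 9.17% to 51.1% higher and from 1.72% to 4.61% lower. The log2 fold change then ran from -0.39 to 0.34 for SOD3, -0.011 to 0.35 for GSR, -0.072 to 0.077 for GPX2, -0.12 to 0.028 for GPX7, -0.12 to 0.39 for TXN2, -0.0039 to 0.54 for PRDX1, -0.15 to 0.32 for PRDX5, -0.12 to 0.30 for GLRX, -0.0026 to 0.65 for MSRB2 and -0.041 to 0.0066 for KEAP1. The log2 difference of SOD2 to SOD1 ran from -0.085 to 0.10, of TXN2 to TXN from -0.21 to 0.11 and of PRDX3 to PRDX1 from -0.080 to 0.22. SOD2 to SOD1 was -0.0012 from FPKM + 1 and -0.22 within the libraries with the higher mapped share. TXN2 to TXN was 0.028 within the others. PRDX3 to PRDX1 was -0.33 within those others and -0.039 with IUGR 2 and IUGR 3 averaged.

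The replicate numbers showed no pairing of the pigs in these values: same-numbered pigs' deviations from their group means correlated at -0.22, -0.072 and -0.17. The highest correlations were 0.23, for Normal 1 with IUGR 2 and for Normal 3 with IUGR 1, pigs of the same class of mapped share. With 3 pigs a group these correlations cannot settle whether same-numbered pigs were littermates. A replicate block left each fold change as it was (0.43 for SOD1), called 0 genes (lowest limma adjusted p = 0.421, for GSS) and gave a lowest exact p of 0.25 for the ratios.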
